A study of Mus musculus with 13 samples.

Results

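Cyp17a1 and 9 other steroid hormone enzymes of the liver were described gene by gene in 13 mice. The 10 genes were Cyp17a1, Hsd3b5, Hsd3b2, Hsd3b3, Hsd17b2, Hsd17b6, Hsd11b1, Srd5a1, Akr1d1 and Akr1c6, chosen by name as hepatic steroid dehydrogenases and reductases around Cyp17a1. They are 10 of the 53465 genes in the table of counts, and all 10 were among the 13545 genes with enough counts to be tested. The choice was made with the difference between the genotypes known, so the genotype values of these 10 genes are given as a description with no test.

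Liver RNA was sequenced from 6 WT and 7 Nod2-/- BALB/c mice. All 13 mice, including the WT mice, had received the carcinogen dimethylbenz[a]anthracene (DMBA) once as pups, were fed a high fat diet (HFD), were male, and were 30 weeks old per the labels. Nod2, an intracellular sensor of bacterial peptidoglycan, is deleted in the whole animal in Nod2-/- mice and not in the liver alone, and neither group was free of DMBA or HFD. Each library is 1 mouse, and the comparison asks which liver transcripts differ with loss of Nod2 under DMBA + HFD. The labels call all 13 livers cancerous but do not say how much of a sample was tumor. The study found liver tumors in a larger share of Nod2-/- than of WT males given DMBA + HFD, along with more weight gain. It also reported that the Nod2-/- males given DMBA + HFD lost weight late in the experiment. Tumor content and body weight therefore cannot be told apart from genotype here. In such bulk RNA, fewer cells of a type and less RNA per cell cannot be told apart.

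Steroid hormones are made from cholesterol mainly in the adrenal gland and gonads, while the liver mostly converts and inactivates those that reach it in the blood. 3-Beta-hydroxysteroid dehydrogenases (Hsd3b) and 17-beta-hydroxysteroid dehydrogenases (Hsd17b) oxidise or reduce single positions of the steroid ring, and the steroid reductases (Srd5a, Akr1) saturate the ring and its ketone groups before the products are conjugated and excreted. Several of these enzymes differ between the sexes in mouse liver, and Hsd3b5 is a well known gene of the male liver.

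The libraries held 13824780 to 20579984 counts. Nod2 itself had 0 to 4 counts in WT and 1 to 6 in Nod2-/- mice, too few to check the genotype labels. All 8 hepatocyte markers were detected, and their sum ran from 1358690 to 1931190 normalized counts in WT and 1460690 to 3104870 in Nod2-/- mice. Nod2-/- 7 stood apart by its neutrophil markers, which summed to 17641 against 120 to 1584 in the other Nod2-/- mice and 71.3 to 192 in WT. WT 3 stood apart from the other WT mice by its tumor and progenitor markers, which summed to 8938 against 713 to 3064.5. In Nod2-/- mice the tumor and progenitor sums ran from 2943 to 13074, with a median of 6366 against 1579 in WT. Over all genes 157 of 13545, or 1.16%, passed a false discovery rate (FDR) of 5% in edgeR's quasi-likelihood test, 0.65% higher and 0.509% lower in Nod2-/- mice.

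Cyp17a1 encodes the cytochrome P450 that hydroxylates pregnenolone and progesterone and cleaves their side chain on the way to androgens. It was the 1 member with a higher mean in Nod2-/- mice, 515 ± 507 normalized counts (SD, n = 7) against 78.3 ± 29.2 in WT (SD, n = 6). The gene (ENSMUSG00000003555.7) lies at chr19:46667165-46673172 on the minus strand of GRCm38. The 6 WT mice had 64.6, 61.4, 120.2, 40.6, 103 and 80.2 normalized counts, and the 7 Nod2-/- mice had 187, 223, 246, 646, 331, 361 and 1612. Every Nod2-/- mouse was above every WT mouse, and the spread was wider among the Nod2-/- mice, with a coefficient of variation of 98.5% against 37.3% in WT, or 50.3% without Nod2-/- 7. The log2 fold change was 2.71 (SE 0.51), or 2.08 without Nod2-/- 7, the highest mouse. The raw counts of the lowest and highest WT mouse were 37 and 133, so the gene was detected in both genotypes.

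Cyp17a1 is a gene of steroid-making cells, so markers of such cells in the gonad and adrenal were counted as well. Of 10 such markers, Cyp11b1, Cyp19a1, Mc2r and Lhcgr had 0 counts in all 13 livers. Cyp11a1, which starts steroid synthesis, had at most 1 count in WT and 4 in Nod2-/- mice, and the Leydig cell hormone Insl3 at most 1 and 6. The sum over the 10 markers was 62.5 to 206 in WT and 95.1 to 360 in Nod2-/- mice. Most of it was the adrenal steroid hydroxylase Cyp21a1, with 336 normalized counts in Nod2-/- 5 and 70.6 in Nod2-/- 7. All 6 markers of kidney tubule were at 3 counts or fewer. Of 12 neutrophil markers, 5 had enough counts to be tested, and all 5 were above 0 with none past 5% FDR in edgeR. Sums over the 12 neutrophil markers were 120, 199, 420, 1584, 768, 513 and 17641 in Nod2-/- mice 1 to 7. They were lowest and highest in the same Nod2-/- mice as Cyp17a1. In Nod2-/- 4, 1223 of the 1584 came from Prtn3 alone, so its place among the sums rests largely on 1 marker. The part of neutrophils or of steroid-making cells in the Cyp17a1 values was not tested.

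**Figure D1:**
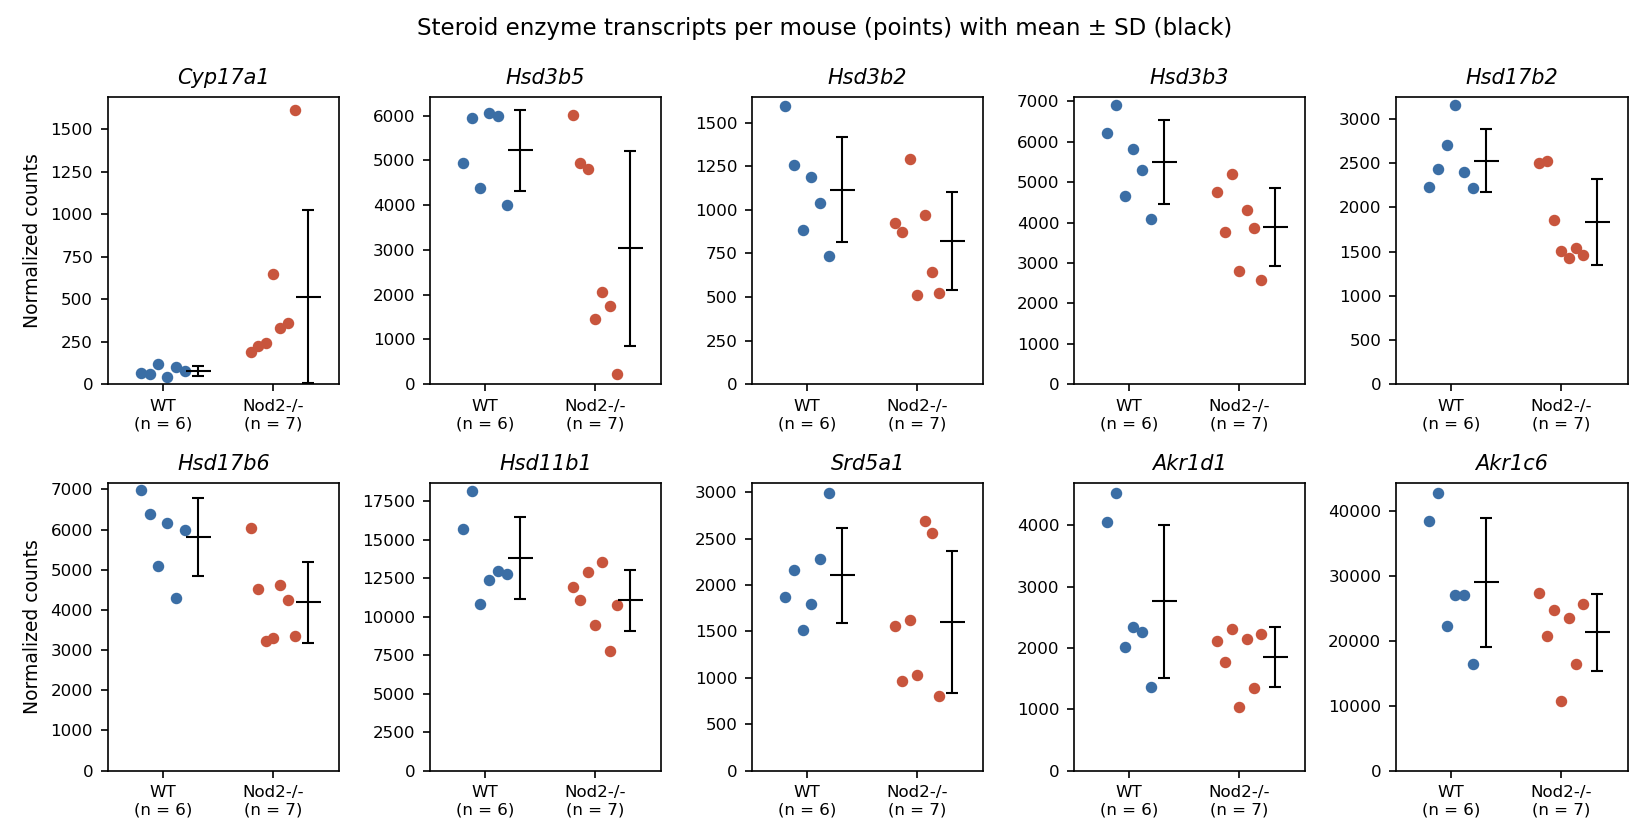
Normalized counts of the 10 steroid enzymes (y axes from 0) in each of 6 WT (blue) and 7 Nod2-/- (red) mice, with mean ± SD in black. Cyp17a1 is the panel without overlap between genotypes, and Hsd3b5 shows 4 Nod2-/- mice at 2053 or less and 3 at 4803 or more.

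The other 9 enzymes all had lower means in Nod2-/- mice, with log2 fold changes from -0.78 to -0.32 and a median of -0.46. Over all 10 members the median was -0.45, beside 0.02 over all genes tested, of which 47.7% were below 0. Cyp17a1 was the 1 of 10 past 5% FDR, beside 1.16% of all genes, and the 1 of 10 whose genotypes did not overlap, beside 1.44% of all genes (0.753% with Nod2-/- higher). Since these genes were picked with that contrast known, the counts describe them and carry no weight as a test. Among the 9, Nod2-/- 4 was below every WT mouse for 9, Nod2-/- 6 for 8 and Nod2-/- 7 for 7, whereas Nod2-/- 1 was below every WT mouse for none. The same share was not taken over all genes for each mouse, so whether these counts are particular to the enzymes is not known.

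The 3-beta-hydroxysteroid dehydrogenases Hsd3b5, Hsd3b2 and Hsd3b3 lie side by side on the minus strand of chromosome 3. Hsd3b5 (ENSMUSG00000038092.6, chr3:98618634-98630252) acts in mouse liver mainly as a reductase of active steroids, while Hsd3b2 (ENSMUSG00000063730.13, chr3:98709255-98724543) and Hsd3b3 (ENSMUSG00000062410.14, chr3:98741523-98763127) belong to the branch of the family that includes the enzymes of hormone synthesis. Their coding sequences are all 1122 bases long. Hsd3b2 and Hsd3b3 share 95.1% of their coding bases, whereas Hsd3b5 shares 79.9% with Hsd3b2 and 79.6% with Hsd3b3. The stretch below, coding bases 192 to 277 of the second coding exon, was taken from the GENCODE vM21 transcripts. It is 86 bases long, the length of 2 reads of 43 bases, and is shown because a read that lies within it fits Hsd3b2 and Hsd3b3 alike but not Hsd3b5. It lies at chr3:98713461-98713546 in Hsd3b2, chr3:98743856-98743941 in Hsd3b3 and chr3:98622036-98622121 in Hsd3b5, minus strand, and capitals mark the 25 bases of Hsd3b5 that differ from Hsd3b2.
Hsd3b2: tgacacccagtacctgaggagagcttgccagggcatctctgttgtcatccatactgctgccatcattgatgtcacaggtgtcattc
Hsd3b3: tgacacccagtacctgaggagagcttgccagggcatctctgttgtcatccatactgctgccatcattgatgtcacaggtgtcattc
Hsd3b5: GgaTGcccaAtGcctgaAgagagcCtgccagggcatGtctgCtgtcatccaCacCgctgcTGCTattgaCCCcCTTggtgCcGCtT

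Along the coding sequence, 400 of 1080 stretches of read length (43 bases) were identical between Hsd3b2 and Hsd3b3, and none between Hsd3b5 and either of them. Over whole transcripts, 29.1% of such stretches of Hsd3b2 and 7.54% of those of Hsd3b3 occurred in another gene. For Hsd3b5 it was 24.9%, shared with Gm10681, Hsd3b4 and Gm4450, which had 2 counts or fewer in any mouse. How the counting treated reads that fit several genes is not given in the sources used here, so the split between Hsd3b2 and Hsd3b3 is uncertain. Zfp697 overlaps Hsd3b2 and Hsd3b3 on the opposite strand and had 16 to 58 counts.

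Hsd3b5 had 4945, 5958, 4393, 6063, 5998 and 3997 normalized counts in the 6 WT mice and 6012, 4947, 4803, 1463, 2053, 1757 and 229 in the 7 Nod2-/- mice. Mice 1 to 3 of the Nod2-/- group lay within the WT range, and mice 4 to 7 were below every WT mouse. The means were 5226 ± 907 in WT (SD, n = 6) and 3038 ± 2183 in Nod2-/- mice (SD, n = 7), with a log2 fold change of -0.78 (SE 0.49). Leaving out Nod2-/- 7 moved this to -0.58 and leaving out Nod2-/- 1 to -1.06. The 4 Nod2-/- mice with the lowest Hsd3b5 were also the 4 with the highest neutrophil marker sums, and the part of those cells in the Hsd3b5 values was not tested.

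Hsd3b3 and Hsd3b2 differed less between genotypes and overlapped. Hsd3b3 had 6218, 6902, 4649, 5826, 5291 and 4083 normalized counts in WT and 4759, 3768, 5206, 2803, 4304, 3854 and 2591 in Nod2-/- mice, with a log2 fold change of -0.50 (SE 0.17). Hsd3b2 had 1595, 1258, 883, 1187, 1039.6 and 734 in WT and 926, 872, 1290.3, 512, 971, 643 and 525 in Nod2-/- mice, with a log2 fold change of -0.44 (SE 0.22). For Hsd3b3, 4 of 7 Nod2-/- mice were below every WT mouse, and for Hsd3b2 3 of 7. The make-up of the trio also varied. Hsd3b5 supplied 38.8% to 48.7% of the counts of the 3 genes in WT, and 51.4%, 51.6%, 42.5%, 30.6%, 28.0%, 28.1% and 6.85% in Nod2-/- mice 1 to 7. In the 4 Nod2-/- mice with little Hsd3b5, it made up a smaller part of the trio than in any WT mouse. These mice were picked by their low Hsd3b5, which enters the share, so the lower share is a description only.

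The promoter windows of the trio are shown to set Hsd3b5 beside its neighbours Hsd3b2 and Hsd3b3, the pair that varied most closely together across mice. Each is the 250 bases before the RefSeq start site (GRCm38.p6, minus strand), at chr3:98645535-98645784 for Hsd3b5, chr3:98724544-98724793 for Hsd3b2 and chr3:98763129-98763378 for the more upstream of both Hsd3b3 windows, with capitals for motif letters. The RefSeq start of Hsd3b5 is 15.3 kb upstream of the gene as GENCODE draws it. Although Hsd3b2 and Hsd3b3 were the closer pair across mice, the Hsd3b5 and Hsd3b3 windows share runs of letters that the Hsd3b2 window lacks. How alike the windows are was not measured.
Hsd3b5: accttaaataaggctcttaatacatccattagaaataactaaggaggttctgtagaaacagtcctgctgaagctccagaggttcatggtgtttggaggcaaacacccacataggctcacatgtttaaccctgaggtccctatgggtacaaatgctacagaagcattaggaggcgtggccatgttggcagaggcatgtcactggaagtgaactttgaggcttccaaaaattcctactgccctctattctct
Hsd3b2: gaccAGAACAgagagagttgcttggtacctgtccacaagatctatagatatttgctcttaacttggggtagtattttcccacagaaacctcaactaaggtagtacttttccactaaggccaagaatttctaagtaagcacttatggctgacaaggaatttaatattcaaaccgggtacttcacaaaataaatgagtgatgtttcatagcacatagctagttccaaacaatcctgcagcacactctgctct
Hsd3b3: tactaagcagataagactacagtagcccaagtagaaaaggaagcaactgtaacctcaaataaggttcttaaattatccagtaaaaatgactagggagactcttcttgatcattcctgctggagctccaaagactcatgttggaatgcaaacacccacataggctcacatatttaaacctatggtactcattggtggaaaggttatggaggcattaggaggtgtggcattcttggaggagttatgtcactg

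These motifs were searched on both strands: the nuclear receptor element AGGTCA, the STAT type TTCNNNGAA, the steroid receptor element AGAACA and TATAAA. They occurred in 14.02%, 7.02%, 16.1% and 12.4% of the 32851 windows of 250 bases in the RefSeq table, and no matches in these genes overlapped. Hsd3b2 held AGAACA 246 bases before its start, and Hsd3b5 and Hsd3b3 held none of the motifs. Of the 8 members with a window, Akr1d1 held AGGTCA at 232 and 210 bases before its start on the minus strand of the window and Akr1c6 held TATAAA 164 bases before its start. The 5 others held none of these letters. Cyp17a1 and Hsd17b2 had no window in the table.

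The members of the 17-beta-hydroxysteroid dehydrogenase family, Hsd17b2 and Hsd17b6, had lower means in Nod2-/- mice by similar factors. Hsd17b2 (ENSMUSG00000031844.8, chr8:117701904-117759027), which inactivates estradiol and testosterone by oxidation, had 2236, 2432, 2709, 3164, 2405 and 2219.7 normalized counts in WT and 2500.0, 2527, 1857, 1503, 1423, 1545 and 1465 in Nod2-/- mice. Mice 3 to 7 of the Nod2-/- group were below every WT mouse, and mice 1 and 2 were within the WT range. The means were 2528 ± 358 (SD, n = 6) and 1832 ± 487 (SD, n = 7), with a log2 fold change of -0.46 (SE 0.16). The gene lies 29.0 Mb from Nod2 on the same chromosome. Hsd17b6 (ENSMUSG00000025396.7, chr10:127990936-128007611), an oxidase of androgen metabolites, had 6974, 6393, 5080.0, 6172, 4290.0 and 5980.4 in WT and 6033, 4517.5, 3233, 3293, 4611, 4249.9 and 3359 in Nod2-/- mice. Of these, 4 of 7 Nod2-/- mice were below every WT mouse and the log2 fold change was -0.47 (SE 0.16). Of its read-length stretches 12.5% occur in Rdh genes, which had 16 counts or fewer.

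Hsd11b1 (ENSMUSG00000016194.14, chr1:193221634-193264075), which regenerates active glucocorticoid from its inert ketone form, showed the smallest difference. It had from 10792 to 18184 normalized counts in WT (median 12849) and from 7757 to 13538 in Nod2-/- mice (median 11097). The ranges overlapped widely, with a log2 fold change of -0.32 (SE 0.15).

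The reductases overlapped between genotypes as well. Srd5a1 (ENSMUSG00000021594.11, chr13:69573449-69611442), the 5-alpha-reductase of testosterone and corticosterone, ranged from 1516 to 2994 in WT and from 801 to 2693 in Nod2-/- mice, with a log2 fold change of -0.39 (SE 0.27). Nod2-/- 5 and 6 had 2693 and 2561 and lay within the WT range although both were low in Hsd3b5. Akr1d1 (ENSMUSG00000038641.12, chr6:37530173-37568815), the 5-beta-reductase shared by bile acid and steroid hormone breakdown, ranged from 1360.0 to 4521 in WT (median 2297) and from 1037 to 2306 in Nod2-/- mice (median 2119), with a log2 fold change of -0.58 (SE 0.26). WT 1 and 2 had 4056 and 4521 and the other 4 WT mice at most 2334, and without WT 2 the log2 fold change was -0.38. Akr1c6 (ENSMUSG00000021210.16, chr13:4434306-4457877), an aldo-keto reductase with 17-beta-hydroxysteroid dehydrogenase activity, ranged from 16436 to 42744 in WT and from 10644 to 27416 in Nod2-/- mice, with a log2 fold change of -0.44 (SE 0.24). Its highest values were again those of WT 1 and 2, at 38413 and 42744.

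Per kilobase of exon, Akr1c6 was the most abundant of the 10 in WT livers at 14262 normalized counts and Cyp17a1 the least at 28.3. Hsd17b6, Hsd3b5 and Hsd11b1 followed Akr1c6 at 3692, 3374 and 3244, and neighbours among them differed by less than 1 SD. Hsd17b2, Akr1d1, Hsd3b3 and Srd5a1 came next at 1314, 953, 859 and 723 with neighbours again within 1 SD, and Hsd3b2 had 302. Per kilobase of the longest coding transcript, Hsd11b1 stood at 8498 and Hsd3b3 at 3584, since both have exons outside that transcript, and Akr1c6 stayed highest and Cyp17a1 lowest. In Nod2-/- mice Cyp17a1 had 186 per kilobase of exon, within 1 SD of Hsd3b2 at 222.

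**Figure D2:**
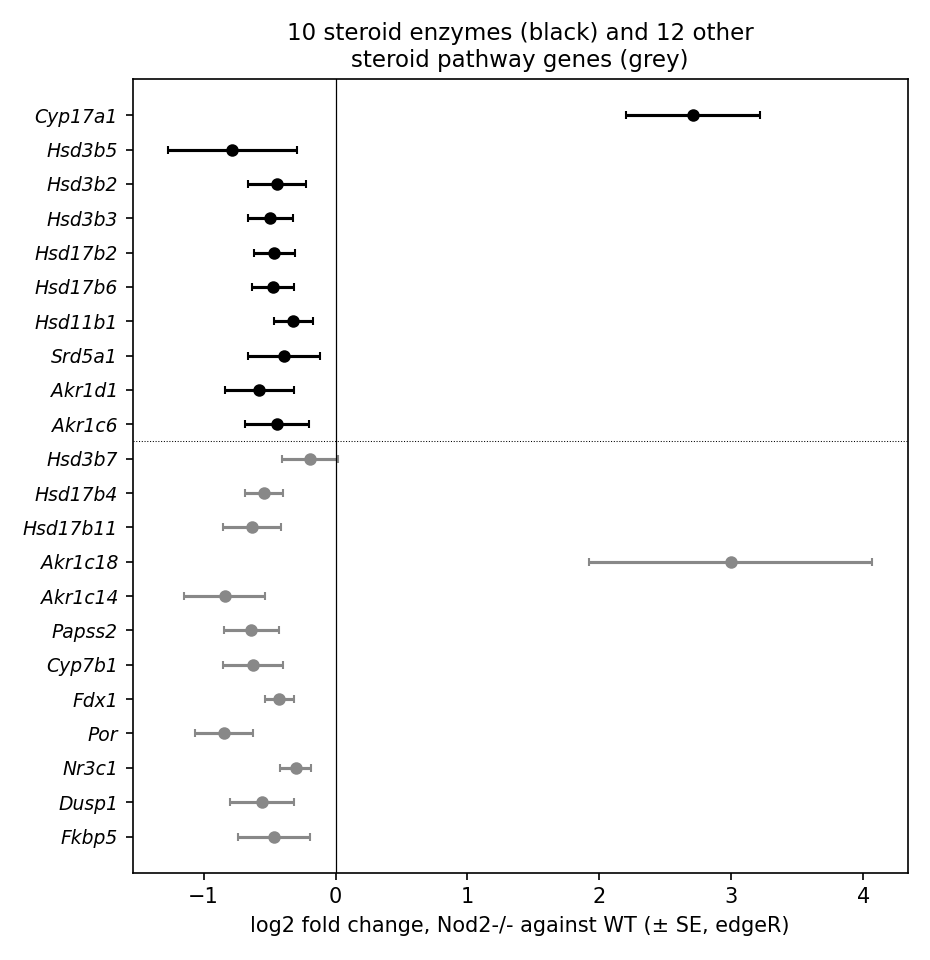
Log2 fold change of Nod2-/- against WT mice (x axis) with its standard error from edgeR for the 10 steroid enzymes (black) and 12 other genes of the steroid pathway (grey). Cyp17a1 at 2.71 and Akr1c18 at 2.995 lie to the right of 0, and all others lie between -0.84 and -0.19. The grey genes were picked by the smallest p in each list, while 16 of all 41 tested pathway genes lie above 0.

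Cyp17a1 and Hsd3b5 varied in opposite directions among the Nod2-/- mice. Ranked by Cyp17a1 from lowest to highest, the 7 Nod2-/- mice were in exactly the reverse order of Hsd3b5, with Pearson's r = -0.98 (exact permutation p = 0.000198, n = 7) and Spearman's rho = -1.0 (exact permutation p = 0.000397, n = 7). The first is the smallest p that the orderings of 7 mice can give, and it was 0.00634 after adjustment over the 32 relations within genotypes. Within WT the relation was not resolved (r = -0.47, exact permutation p = 0.349, n = 6; rho = -0.54, exact permutation p = 0.297). The values of Hsd3b5 left a gap between 2053 and 3997, and among the 9 mice above it r was -0.51 (permutation p = 0.243, n = 9). That split was chosen after seeing the data and narrows the range of Hsd3b5 itself, so nothing is read from the lower r. With genotype means subtracted, r over the 13 mice was -0.91 (permutation p = 0.00032, adjusted p = 0.00256 over 16 relations) and rho was -0.87 (permutation p = 0.0008, adjusted p = 0.0064). It was -0.63 without the mice farthest out in Cyp17a1, Nod2-/- 4 and 7, and -0.76 without Nod2-/- 7 alone, past 5% FDR in all 13 fits that left out 1 mouse.

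**Figure D3:**
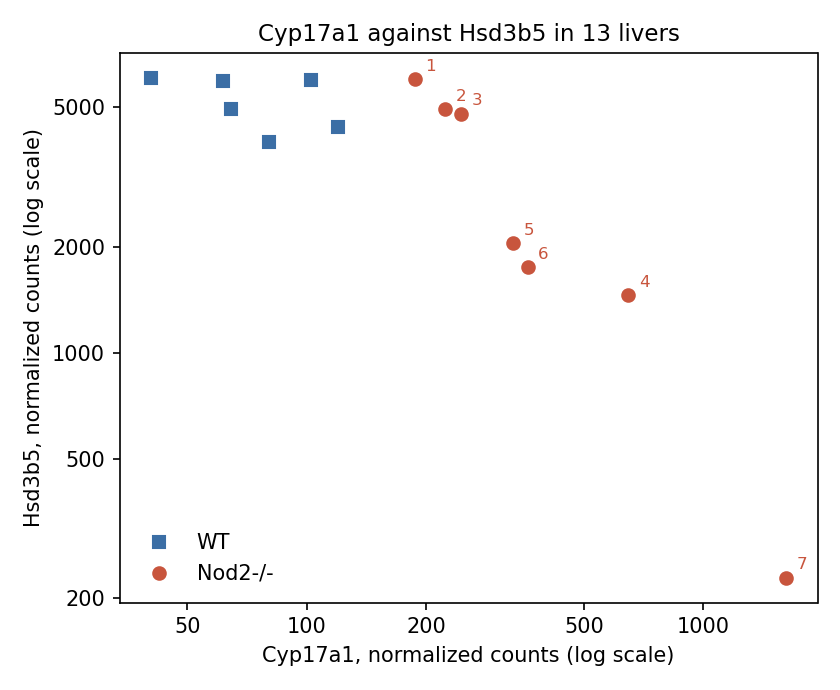
Normalized counts of Cyp17a1 (x axis, log scale) against Hsd3b5 (y axis, log scale) in 6 WT (squares) and 7 Nod2-/- mice (circles, numbered by mouse). Nod2-/- 7 has 1612 counts of Cyp17a1 and 229 of Hsd3b5, and the WT mice stay between 40.6 and 120.2 of Cyp17a1.

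Hsd3b2 and Hsd3b3 were related to Hsd3b5 at 5% FDR by Pearson's r but not by Spearman's rho. Of the 16 relations across the 13 mice, with genotype means subtracted, 7 passed 5% FDR in a permutation test of Pearson's r. The share of all genes as closely related to Cyp17a1 or Hsd3b5 was not taken. Whether these relations are particular to the enzymes is therefore not known. Cyp17a1 was related inversely to Hsd3b3 (r = -0.79, rho = -0.78, adjusted permutation p = 0.011 and 0.0242) and to Hsd3b2 (r = -0.70, rho = -0.73, adjusted permutation p = 0.0299 and 0.0452). Without Nod2-/- 4 and 7 these r were -0.52 and -0.49. Hsd3b2 and Hsd3b3 rose and fell together (r = 0.92, rho = 0.92, adjusted permutation p = 0.00112 and 0.00192; 0.87 without Nod2-/- 4 and 7), beside the shared read-length stretches above, whose part in it was not tested. Hsd3b5 was related to Hsd3b3 (r = 0.74, adjusted permutation p = 0.011; rho = 0.70, adjusted permutation p = 0.0541) and to Hsd3b2 (r = 0.65, adjusted permutation p = 0.0409; rho = 0.71, adjusted permutation p = 0.0541). Without the mice farthest out in Hsd3b5, Nod2-/- 1 and 7, they were 0.60 and 0.68. Leaving out Nod2-/- 7 alone ended the calls for Cyp17a1 with Hsd3b3 (r = -0.70) and with Hsd3b2 (r = -0.67) and for Hsd3b5 with Hsd3b3 (r = 0.64) and with Hsd3b2 (r = 0.64). Leaving out Nod2-/- 1 ended the last 3 of these, and Nod2-/- 4 those with Hsd3b2. Hsd3b5 with Hsd3b2 was also lost without WT 6 or Nod2-/- 2, 5 or 6 and passed in 6 of the 13 such fits, while Hsd3b2 with Hsd3b3 passed in all 13.

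Cyp17a1 was not shown to vary with the other 6 enzymes at 5% FDR. The r was -0.64 with Hsd17b2 and -0.63 with Hsd17b6 (adjusted permutation p = 0.0715 and 0.0608). Without Nod2-/- 4 and 7 these r were -0.60 and -0.54, beside -0.52 for Hsd3b3 and -0.49 for Hsd3b2. Without Nod2-/- 7 alone they were -0.65 and -0.64, beside -0.70 and -0.67. Hsd17b2 and Hsd17b6 are thus not set apart from Hsd3b3 and Hsd3b2 by the size of r. With Hsd11b1, Srd5a1, Akr1d1 and Akr1c6 the r was from -0.40 to -0.20, the lowest adjusted permutation p of these being 0.375. These 4 values depended on single mice. Without Nod2-/- 7 the r was -0.67 with Akr1c6, -0.56 with Akr1d1, -0.46 with Hsd11b1 and -0.03 with Srd5a1, and without Nod2-/- 4 it was -0.11 with Akr1c6 and -0.09 with Akr1d1. None of the 4 passed 5% FDR in any fit that left out 1 mouse, but without Nod2-/- 7 Akr1c6 was as closely related to Cyp17a1 as Hsd3b2 was (r = -0.67 for both). With Srd5a1 the r was 0.36 once Nod2-/- 4 and 7 were both left out. Male-biased liver genes, a list of 10 that includes Mup20, Elovl3 and Slco1a1, were related inversely to Cyp17a1 (r = -0.83, adjusted permutation p = 0.0299; rho = -0.60, adjusted permutation p = 0.0812). That relation was not seen without both Nod2-/- 4 and 7 (r = -0.02), the mice farthest out in Cyp17a1. Leaving these mice out narrows the range of Cyp17a1 itself. The relation also missed 5% FDR without Nod2-/- 1, 4 or 7 alone (-0.81, -0.82 and -0.57). Hsd3b5 with the same list gave r = 0.81 (adjusted permutation p = 0.0594), and 0.35 without Nod2-/- 1 and 7. The female-biased list was not shown to vary with either gene (r = 0.48 with Cyp17a1 and -0.32 with Hsd3b5, adjusted permutation p = 0.249 and 0.406). Calls were gained for Cyp17a1 with Hsd17b6 without Nod2-/- 3 (r = -0.80) and with the female-biased list without Nod2-/- 6 (r = 0.66), and for Hsd3b5 with the male-biased list without WT 6 (r = 0.84) or Nod2-/- 5 (r = 0.88).

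**Figure D4:**
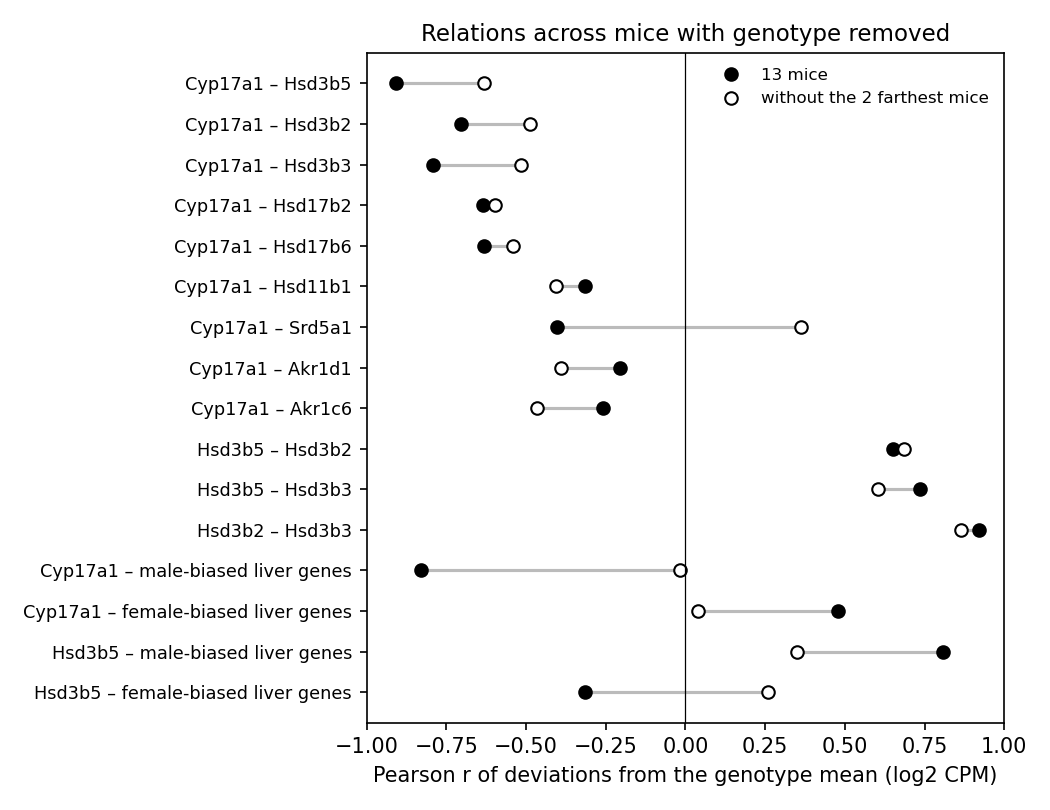
Pearson's r (x axis) of deviations from the genotype mean on the log2 CPM scale for the 16 relations, over 13 mice (filled) and without the 2 mice farthest from the median of the first-named gene (open). Cyp17a1 with Hsd3b5 moves from -0.91 to -0.63, and Cyp17a1 with male-biased liver genes from -0.83 to -0.02.

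Genes whose deviations from the genotype mean were among the most like those of Cyp17a1, out of 11498 genes and over 13 mice, were Shisa5 (r = 0.95), Trim24 (0.91), Arl6ip5 (0.91) and Gnai2 (0.90). For Hsd3b5 they were Slc22a28 (r = 0.97), Mup3 (0.95), Slco1a1 (0.92), Mup21 (0.92) and Cyp2u1 (0.91). Mup3 and Mup21 encode major urinary proteins, and Slco1a1, an uptake transporter of organic anions and steroid conjugates, and Cyp2u1 also stand on the male-biased list. These r were taken over all 13 mice only. Nod2-/- 7 was the lowest mouse for Hsd3b5 (229), Slco1a1 (2603) and Cyp2u1 (189), and its weight in these r was not tested.

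Of 53 other genes of the steroid hormone pathway, 41 were tested, 11 had too few counts and Sts was not matched. None passed 5% FDR in edgeR's quasi-likelihood test, beside 1.16% of all genes, with a lowest adjusted p of 0.0644. At an unadjusted p under 0.05, 3 were higher, beside 12.9% of all genes, and 13 were lower, which is 31.7% of those tested beside 10.2% of all genes. Their median log2 fold change was -0.19. DESeq2 called 4 of the 43 it tested, all lower, and 7.29% of all genes (3.47% lower). Limma's voomWithQualityWeights called 3, all lower, and 6.22% of all genes (2.39% lower).

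The other 3-beta-hydroxysteroid dehydrogenases were nearly silent. Hsd3b4 had 0 counts and Hsd3b1 and Hsd3b6 at most 10 in any liver, while Hsd3b7, an enzyme of bile acid synthesis, had a log2 fold change of -0.19 (SE 0.21). Of 7 tested 17-beta-hydroxysteroid dehydrogenases none passed, and Hsd17b4, the peroxisomal enzyme of fatty acid oxidation, and Hsd17b11, a lipid droplet protein, had -0.54 (SE 0.15) and -0.63 (SE 0.22). DESeq2 called Hsd17b4 (adjusted p = 0.00958). Hsd17b13, another lipid droplet protein, named after its value was seen, was the 1 of 7 above 0 at an unadjusted p under 0.05, with 0.52 (SE 0.20, edgeR adjusted p = 0.15) and 3 of 7 Nod2-/- mice above every WT mouse.

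Of 8 other steroid reductases tested, 6 were above 0 and none passed. Akr1c18, the enzyme that inactivates progesterone, had 9.2, 4.4, 500, 6.6, 36.5 and 47.5 normalized counts in WT and 527, 885, 93.5, 3195, 468, 68.3 and 486 in Nod2-/- mice, with a log2 fold change of 2.995 (SE 1.07, edgeR adjusted p = 0.126). It was high in WT 3, the WT mouse with the high tumor and progenitor markers, and without WT 3 the log2 fold change was 5.23 (edgeR adjusted p = 0.0174), in a fit that called 8.49% of all genes. The 3 Nod2-/- mice highest in Akr1c18 were 1, 2 and 4, which also had the highest tumor and progenitor marker sums at 10863, 9833 and 13074, and the part of those cells was not tested. Akr1c18 and Cyp17a1 were among the genes that the study picked from these same libraries, so neither is independent evidence of a direction. Akr1c14, a 3-alpha-hydroxysteroid dehydrogenase, had -0.84 (SE 0.31).

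None of the 5 tested enzymes of hydroxylation and sulfation passed 5% FDR in edgeR, and 4 of the 5 were lower at an unadjusted p under 0.05, beside 10.2% of all genes, among them Papss2, which makes the sulfate donor (-0.64, SE 0.21), and Cyp7b1, the oxysterol hydroxylase (-0.63, SE 0.22). Among the 7 genes of electron supply, Fdx1, the mitochondrial ferredoxin, had -0.43 (SE 0.11), and Por, the reductase that serves Cyp17a1 and other microsomal P450 enzymes, had -0.84 (SE 0.22). Por was below every WT mouse in 5 of 7 Nod2-/- mice (edgeR adjusted p = 0.0659). DESeq2 called Por and Fdx1 (adjusted p = 0.00739 and 0.0098) and Papss2 (adjusted p = 0.0375).

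Nr3c1, the glucocorticoid receptor, had -0.30 (SE 0.12) and did not pass 5% FDR in edgeR. Of 8 glucocorticoid receptor targets, 3 were above and 5 below 0 with a median of -0.13, and none passed. Dusp1, a MAP kinase phosphatase, had -0.55 (SE 0.24), and Fkbp5, a cochaperone of the receptor, -0.47 (SE 0.27).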

How the data were processed

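Liver polyA RNA of 13 mice was sequenced as stranded paired reads of 43 bases. Per the labels and the study's methods, the authors trimmed reads with Trimmomatic 0.33, aligned them to GRCm38 with TopHat2 2.1.1 and used DESeq2. The counting program and its strand setting are not given in the sources used here. The deposited values are raw counts per Ensembl gene, not normalized (53465 genes, of which 53274 were matched to a symbol and position of GENCODE vM21). Reads that fit several genes may be split or dropped by the counting.

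Counts were normalized by TMM and tested with edgeR 4.0.16 (R 4.3.3; filterByExpr, quasi-likelihood, two-sided, Benjamini-Hochberg over 13545 genes, 5% FDR), and a normalized count is a count divided by its library size relative to the mean of the 13, each library size being corrected by its TMM factor. All 6 WT and 7 Nod2-/- mice entered with no covariate. Relations used log2 CPM (prior count 2) minus the genotype mean, 100000 permutations of mice within genotype or exact permutation within 1 genotype (SciPy 1.17.1), two-sided, adjusted over 16 relations. Alternatives were DESeq2 1.42.0, voomWithQualityWeights (limma 3.58.1), RLE scaling, other filters, removal of the 20 most abundant genes, a replicate block and leaving out each mouse. The scripts were tested on simulated data. Named were all 10 members, of each pathway list the genes past 5% FDR or else the 2 with the smallest p, the 5 genes most like Cyp17a1 and Hsd3b5 (average log2 CPM of at least 1), Nod2, and markers at or near 0 or most abundant. Genes named by this rule that are not printed are not reported here. The rest of the named genes were chosen after their values were seen. The members and lists were chosen with earlier results of these data known. Each library is 1 mouse. None of the 36 pairs of libraries within a genotype agreed within sampling noise. Protein identity was not analysed here, and coding sequences took its place.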

Additional observations from a re-analysis of the deposited data

Results flagged for a closer look

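In 46 gene and genotype groups, a single mouse was flagged as far from the others of its genotype 4 times. The rule was Dixon's ratio of gap to range, taken on normalized counts and not on logs. Its cutoff flags about 1 in 20 groups only where values are normally distributed, which was not checked here. The 4 flags are therefore a description and not a measure against chance. Nod2-/- 7 had 1612 normalized counts of Cyp17a1, with the next Nod2-/- mouse at 646. For Akr1c18, WT 3 had 499.8 against at most 47.5 in the other WT mice, and Nod2-/- 4 had 3195 against at most 885. For Dusp1, Nod2-/- 1 had 529.8.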

How the results depend on the processing

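Directions of the 10 members held under all 20 other settings and the ratio of group means, and the member median lay between -0.55 and -0.39 when mice were left out. The log2 fold change of Cyp17a1 ran from 1.999 to 2.87. Its call was less stable. DESeq2 called 3 members (Cyp17a1 higher, Hsd17b2 and Hsd17b6 lower), beside 7.29% of all genes. Leaving out 1 mouse gave 0 or 1 member, the call on Cyp17a1 being lost without WT 1, 2, 4 or 5. Over all genes DESeq2 called 1154 of 15821 and voomWithQualityWeights 843 of 13545 (6.22%) in place of 157 (1.16%). Leaving out 1 mouse gave from 41 of 13675 (without WT 1) to 1156 of 13611 (without WT 3, 8.49%). For pathway genes outside the members, DESeq2 called 4, voomWithQualityWeights 3, and leaving out 1 mouse 0 to 5, the 5 without WT 3. The cause of these shifts was not tested. Of the 16 relations, 2 to 8 passed when 1 mouse was left out against 7 with all mice, with 3 without Nod2-/- 1, 4 without Nod2-/- 4 and 2 without Nod2-/- 7. Those left without Nod2-/- 7 were Cyp17a1 with Hsd3b5 and Hsd3b2 with Hsd3b3.

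Replicate numbers of the labels did not pair the mice, with correlations of same-numbered deviations from -0.302 to 0.304, and none of the 6 was the best match of its number. With the replicate number as a block, 35 genes passed over all genes, 0 members and 1 pathway gene (Fkbp5). Libraries held 13824780 counts or more, and counting error weighs most on Cyp17a1 in WT, with 37 raw counts at its lowest.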
